A study of Mus musculus with 8 samples.

Results

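Rab and Arf family GTPases were compared between invariant natural killer T (iNKT) cells of the skin and of the spleen. The set holds the genes of the count table whose symbols are Rab, Arf (1 to 6) or Arl followed by a number and, for some, a letter a to d, with a summed count above 0 over 8 libraries. Of the 22549 genes in the table, 82 carried such a symbol and 59 had a count: 38 Rab, 6 Arf and 15 Arl genes. The other 23 symbols were listed at 0 in every library. The members with the smallest sums were Rab27b, with 59 counts, and Rab20, with 63 counts, each from 1 library.

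Rab and Arf proteins are small GTPases that switch between a GDP-bound and a GTP-bound form and, in the GTP-bound form, recruit the coats, tethers and motors that move vesicles between membranes. Guanine nucleotide exchange factors load them with GTP, GTPase-activating proteins return them to the GDP form, and GDP dissociation inhibitors take Rab proteins off membranes. In T cells, Rab-controlled recycling returns the T cell receptor to the surface and to the synapse, and the Rab27a effector Munc13-4 primes lytic granules for release.

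The study sequenced RNA from iNKT cells of skin (4 libraries) and spleen (4 libraries) of mice that all carried the CCR10+/EGFP genotype, in which 1 allele of the chemokine receptor gene Ccr10 carries the EGFP reporter. No age or treatment was given. The labels do not say whether the replicates came from separate mice, so p-values reflect differences among libraries that may be no more than technical. Levels are counts per 1000000 counts of the library (CPM), with library sizes scaled by TMM, a normalisation that centres a trimmed mean of log ratios between libraries; changes are log2 skin over spleen from edgeR's quasi-likelihood test, called at a Benjamini-Hochberg adjusted p under 0.05.

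The libraries held 7191131 to 9791973 expected counts, with 5309 to 6018 genes detected in skin and 6429 to 10106 in spleen. A count of 3, taken as the floor, corresponded to 0.292 to 0.454 CPM. The T cell receptor subunit genes Cd3e, Cd3d and Cd3g and the iNKT transcription factor gene Zbtb16 had counts in all 8 libraries. Together with Thy1 they summed to 1930.4 to 2460 CPM in skin and 2789.6 to 3417 CPM in spleen, without overlap; Cd3d was at 384 to 583 and 857 to 1389.7 CPM, and Thy1 at 0.605 to 57.8 and 52.01 to 149 CPM. Summed markers of keratinocytes (Krt5, Krt14, Krt10, Krt1) ranged from 0 to 403 CPM in skin and from 0 to 29.5 CPM in spleen, and dendritic and Langerhans cell markers (Epcam, H2-Aa, Cd74) from 16.3 to 263 and from 0 to 195 CPM, with Cd207 at 0 throughout. Summed B cell markers (Cd79a, Cd79b, Ms4a1) were 0 in skin and 31.5 to 103.2 CPM in spleen, and red cell markers (Alas2, Hba-a1) were 0 to 0.424 and 94.1 to 185 CPM. The neutrophil markers S100a8 and S100a9 were at 0 in skin and summed to 0 to 23.3 CPM in spleen; fibroblast markers (Col1a1, Dcn, with Col1a2 and Col3a1 at 0) summed to 0 to 31.9 CPM in skin and were 0 in spleen. Endothelial markers (Pecam1, with Cdh5 and Kdr at 0) ranged from 0 to 77.05 and from 0 to 57.4 CPM, and macrophage markers (Lyz2, C1qa, with Csf1r and C1qb at 0) from 0 to 52.2 and from 0 to 40.6 CPM. Of the melanocyte markers, Tyr was at 24.6 to 43.3 and 26.8 to 39.3 CPM, Pmel had a count in 1 spleen library, and Dct, Tyrp1 and Mlana were at 0. Mast cell and platelet markers were at 0 throughout. The immediate early gene Fos was at 809 to 1974 CPM in skin, and spleen replicate 4 stood apart from the other spleen libraries with 950.0 CPM. The part of these differences in the results was not tested. In bulk samples, fewer cells of a type and less RNA per cell cannot be told apart.

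Among the 47 members that passed the filter on low counts, Rab8b and Arf4 were higher in skin and Rab8a was lower. These were 2 members higher (4.26% of the 47, against 1.85% of all 6920 genes tested) and 1 lower (2.13%, against 3.58%); the other 44 did not pass. The fitted change was above 0 for 34 members and below 0 for 13, with a median of 0.74, while over all genes tested it was above 0 for 2920 and below 0 for 4000, with a median of -0.29. A gene can pass the filter through the tissue where it is high, so these counts describe the 47 genes and not all 59. The comparison with all genes was not matched for level. In a skin library 17.6% ± 4.72 of tested members and 29.4% ± 3.63 of all genes tested were at 0. In a spleen library these shares were 12.8% ± 10.6 and 11.4% ± 10.2 (SD, n = 4 each). The part of these zeros in the medians was not tested. In 3 members every skin library was above every spleen library (Rab8b, Arf4 and Rab4a; 6.38%, against 6.11% of all genes tested), and in 3 members every skin library was below (Rab8a, Rab11b and Rab19; 6.38%, against 13.4%). These shares of members were near or below those of all genes, except for the share called higher, which rested on 2 genes, Rab8b and Arf4. Both were named when the set was chosen, with earlier results of these data known. That share therefore says nothing about the family.

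**Figure D1:**
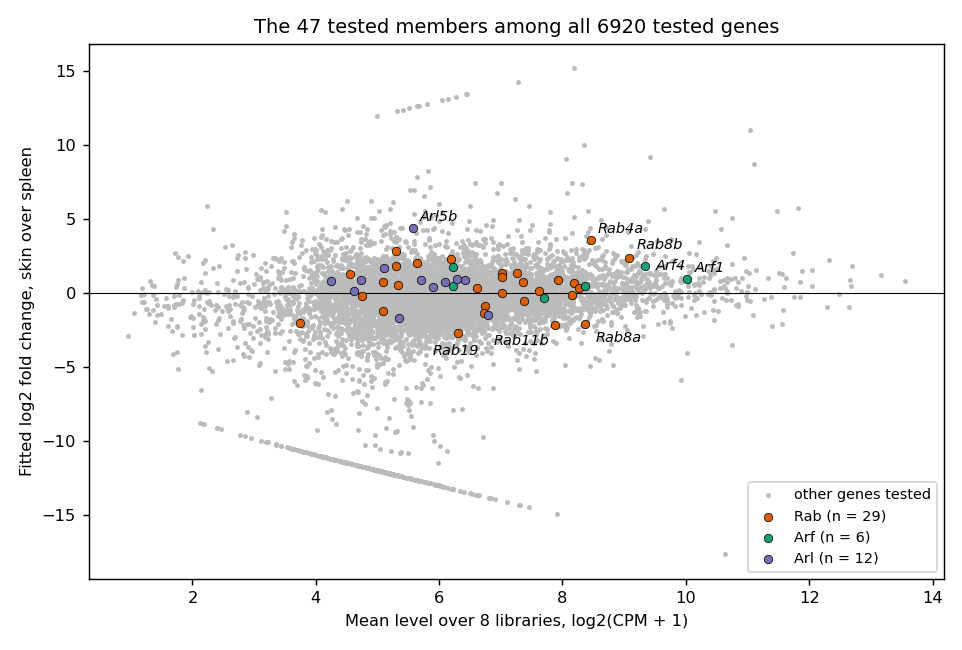
Fitted log2 fold change of skin over spleen (y axis) against the mean level over the 8 libraries, log2(CPM + 1) (x axis), for all 6920 genes tested (grey) and the 47 tested members (colours by family). The members lie around a median of 0.74, and Rab8b, Arf4, Arf1 and Rab4a are among the most abundant members; the slanted lines of grey points are genes at 0 in all libraries of a tissue.

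Rab8b and Rab8a are close paralogs that carry cargo from the recycling endosome and the trans-Golgi network to the plasma membrane, and in T cells Rab8 takes part in delivery of the T cell receptor to the synapse. Rab8b stood at 889, 909.8, 897 and 929.8 CPM in the skin libraries and at 139, 154, 191 and 227 CPM in the spleen libraries. The skin libraries lay within a few percent of each other and the highest spleen library was far below the lowest of them. The means were 906 ± 17.9 CPM (SD, n = 4) and 178 ± 39.6 CPM (SD, n = 4), a 5.10-fold difference. The log2 change was 2.35 ± 0.23 (SE; edgeR adjusted p = 0.00169).

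Rab8a went the other way. Its levels were 201, 123, 89.9 and 84.4 CPM in skin and 394, 268, 908 and 568 CPM in spleen, with no overlap but a wide spread among the spleen libraries. The means were 125 ± 53.9 and 535 ± 277 CPM (SD, n = 4 each), and Rab8a fell by 2.10 ± 0.47 on the log2 scale (SE; edgeR adjusted p = 0.0473). The call was lost when any 1 of the 8 libraries was left out, with adjusted p from 0.0554 to 0.138, and in limma-voom, where adjusted p = 0.19, or with no filter on low counts, where it was 0.0699; the direction stayed. Without spleen replicate 4 the log2 change was -2.07 for Rab8a (adjusted p = 0.127) and 2.49 for Rab8b (adjusted p = 0.00317).

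Set against each other, Rab8b made up 81.5%, 88.1%, 90.9% and 91.7% of the counts of the Rab8 pair in the skin libraries and 26.01%, 36.5%, 17.4% and 28.5% in the spleen libraries. Rab8b was thus the larger part of the pair in every skin library and the smaller in every spleen library. The pair's summed level was 1031 ± 43.6 CPM in skin and 712 ± 301 CPM in spleen (SD, n = 4 each), with overlapping ranges of 987 to 1090.1 and 422 to 1098 CPM. The longest transcripts of both genes in the GENCODE M21 annotation are of similar length, 4733 bases for Rab8b and 4550 for Rab8a. The counts were not whole numbers in 8 libraries for Rab8b and in 7 for Rab8a, as arises where reads that fit several genes or transcripts are divided by estimate (43.3% to 59.8% of all values above 0 in a library), so the split within such pairs carries an uncertainty that the SD does not hold.

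**Figure D2:**
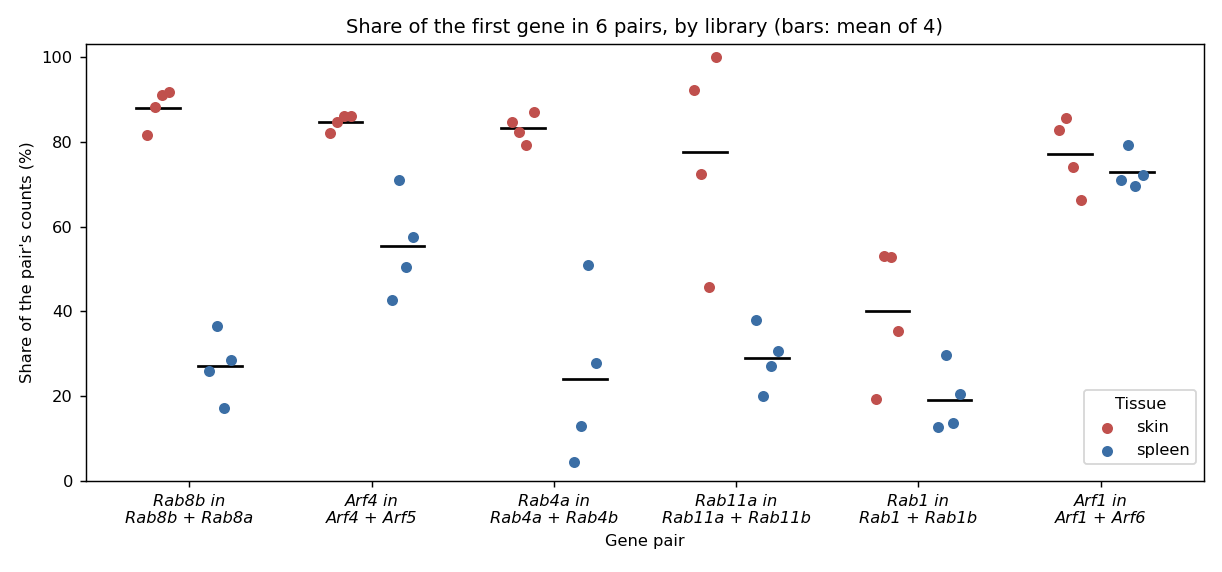
Share of the first gene in the summed counts of 6 pairs of related genes (y axis, %), by pair (x axis), with a point for each skin (red) and spleen (blue) library and a bar at the mean of 4. The shares do not overlap between tissues for the Rab8, Arf4 and Arf5, Rab4 and Rab11 pairs, and overlap for Rab1 with Rab1b and for Arf1 with Arf6. Shares are of counts and are not adjusted for transcript length.

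Arf4 is a class II Arf that acts at the Golgi and the endoplasmic reticulum-Golgi interface and works with Rab8 in sorting cargo at the trans-Golgi network. Arf4 stood at 968, 999, 1144 and 928 CPM in skin and at 214, 340.1, 274 and 321 CPM in spleen. The lowest skin library was above the highest spleen library by a wide margin. The means were 1009.6 ± 93.9 and 287 ± 56.1 CPM (SD, n = 4 each), a 3.51-fold difference, with a log2 change of 1.81 ± 0.22 (SE; edgeR adjusted p = 0.00373). In skin replicate 2 the keratinocyte markers were at 0, as were 32.4% of all genes tested. The dendritic and Langerhans cell markers summed to 255 CPM in that library, where Arf4 was at 999 CPM and Rab8b at 909.8 CPM. The part of either marker set in the levels of Arf4 and Rab8b was not tested. Both Arf4 and Rab8b passed in all 17 alternative settings, with adjusted p up to 0.0405 and 0.0302.

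The promoters of the 3 members that passed are shown because their levels moved between the tissues in both directions. They run from 250 bases before to 50 bases after the annotated start in RefSeq on build GRCm38.p6, 5′ to 3′ along the gene's strand: Arf4 at chr14:26637884-26638183 (plus strand), Rab8b at chr9:66919656-66919955 (minus strand) and Rab8a at chr8:72160950-72161249 (plus strand). RefSeq entries matched 50 of the 59 members. Capitals mark the cyclic AMP response element (CRE) core TGACG on either strand.
Arf4: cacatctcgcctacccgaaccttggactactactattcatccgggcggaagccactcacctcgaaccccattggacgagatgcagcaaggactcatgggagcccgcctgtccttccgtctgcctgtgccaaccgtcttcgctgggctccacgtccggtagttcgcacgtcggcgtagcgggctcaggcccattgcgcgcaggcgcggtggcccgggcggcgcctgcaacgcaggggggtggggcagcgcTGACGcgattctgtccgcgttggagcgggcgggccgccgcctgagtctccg
Rab8b: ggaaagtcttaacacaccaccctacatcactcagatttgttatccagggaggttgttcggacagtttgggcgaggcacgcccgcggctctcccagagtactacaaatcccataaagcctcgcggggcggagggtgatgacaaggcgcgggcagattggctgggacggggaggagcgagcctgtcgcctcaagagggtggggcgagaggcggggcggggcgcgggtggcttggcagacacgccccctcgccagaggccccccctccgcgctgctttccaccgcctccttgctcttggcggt
Rab8a: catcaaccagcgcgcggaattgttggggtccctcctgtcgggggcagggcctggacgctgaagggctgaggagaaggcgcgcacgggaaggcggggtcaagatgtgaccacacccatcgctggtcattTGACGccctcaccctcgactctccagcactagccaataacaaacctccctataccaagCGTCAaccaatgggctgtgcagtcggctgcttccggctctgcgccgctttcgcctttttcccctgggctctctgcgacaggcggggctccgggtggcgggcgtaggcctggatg
The Arf4 promoter held TGACG from position -1 to 4 counted from the start, and the Rab8a promoter held it from -122 to -118 and, on the other strand, from -64 to -60. None of the 3 held the full CRE TGACGTCA, the AP-1 site TGANTCA, the E-box CACGTG or the Golgi stress element ACGTGGC on either strand, and the Rab8b promoter also held no TGACG. All 3 held CCAAT on a strand, and Arf4 and Rab8b held the GC box GGGCGG, at 3 and 2 positions. Of all 32851 RefSeq mouse promoters of this length, 20.8% held TGACG, 1.79% the full CRE, 7.81% the AP-1 site, 7.15% the E-box, 2.58% the Golgi stress element, 37.4% CCAAT and 35.7% the GC box. The full CRE contains the core, and the E-box and the Golgi stress element can overlap. A match describes letters in this window and is not a binding site.

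**Figure D3:**
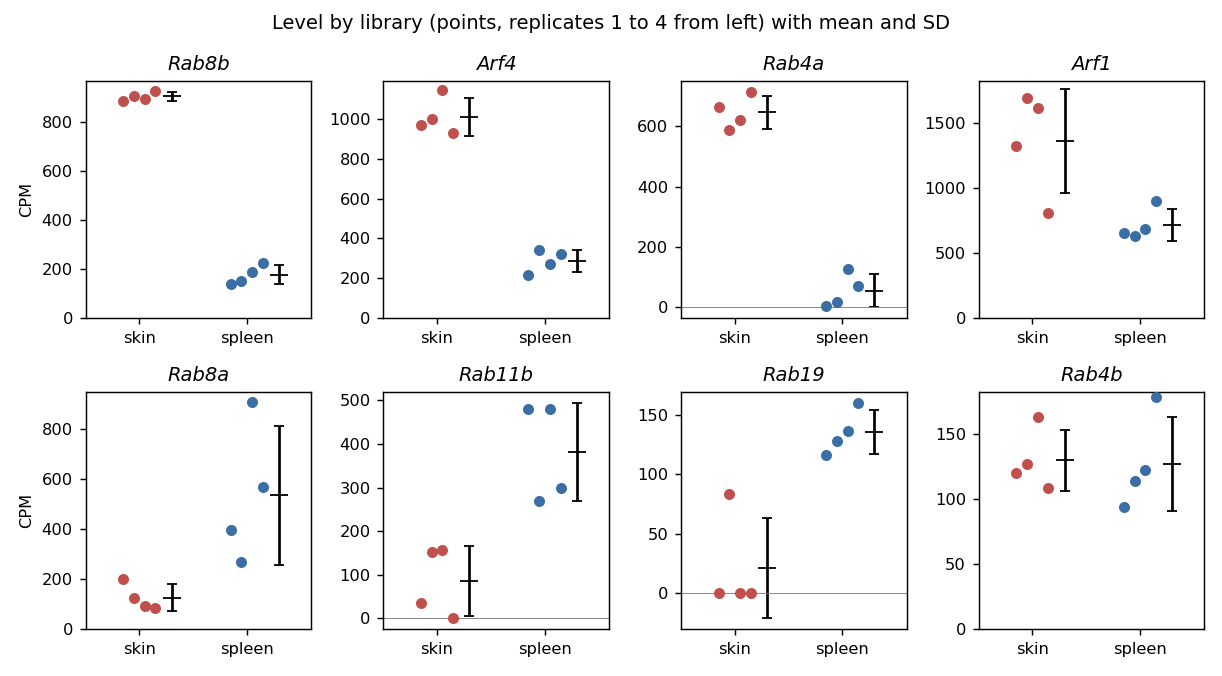
Level in CPM (y axis, linear) of 8 members in the 4 skin (red) and 4 spleen (blue) libraries, with the mean and SD beside the points. Rab8b, Arf4 and Rab4a do not overlap between tissues and are higher in skin; Rab8a, Rab11b and Rab19 do not overlap and are lower; Arf1 and Rab4b overlap.

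Rab4a directs fast recycling from the early endosome. It stood at 664, 587, 620.02 and 715 CPM in skin and at 4.38, 17.2, 126 and 69.0 CPM in spleen, so the groups did not overlap and the spleen libraries spread over more than an order of magnitude. The means were 647 ± 55.4 and 54.2 ± 55.6 CPM (SD, n = 4 each), an 11.9-fold difference, and the log2 change of 3.58 ± 0.90 (SE) did not pass (edgeR adjusted p = 0.0543). It passed with 2 other scalings, RLE (adjusted p = 0.0472) and upper quartile (0.0498), in DESeq2 (0.000146) and in limma-voom (0.00824), and in none of the fits without 1 library (0.0849 to 0.127). Its paralog Rab4b averaged 129.6 ± 23.7 CPM in the skin libraries and 127 ± 36.1 CPM in the spleen libraries (SD, n = 4 each; log2 change 0.03 ± 0.62, SE; adjusted p = 0.999), and changed sign in 4 of the alternatives. Rab4a made up 79.2% to 86.9% of the Rab4 pair's counts in skin and 4.46% to 50.8% in spleen.

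The other early endosome Rabs did not pass. Of the 9 measured, 6 were tested, 5 with a change above 0, with a median of 0.93. Rab5a, which controls fusion of early endosomes, was at 207, 30.9, 307 and 282 CPM in skin and 0, 217, 133 and 134 CPM in spleen, so each tissue held 1 library far below its others. Rab22a was at 175 ± 124 and 81.9 ± 22.1 CPM, and Rab24, which is tied to autophagy, at 60.2 ± 43.9 and 149 ± 94.9 CPM in skin and spleen (SD, n = 4 each). Rab21, a regulator of integrin traffic, was below 77 CPM in every library. Rab5b, Rab5c and Rab20 were not tested: Rab5b was at 0 to 0.151 CPM in skin and 0 to 14.0 CPM in spleen.

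Among the Rabs of recycling and secretion, 7 of 8 measured genes were tested, with 1 higher (Rab8b), 1 lower (Rab8a) and 5 that did not pass. Rab11a and Rab11b mark the recycling endosome. Rab11b stood at 34.1, 151, 158 and 0 CPM in skin and at 479.7, 269, 479 and 299 CPM in spleen, so all skin libraries were below all spleen libraries. The means were 85.7 ± 80.6 and 382 ± 114 CPM (SD, n = 4 each), with a log2 change of -2.15 ± 1.40 (SE; edgeR adjusted p = 0.769). Rab11a was at 397, 396, 133 and 349 CPM in skin and 294, 67.3, 178 and 133 CPM in spleen (log2 change 0.92 ± 0.55, SE; adjusted p = 0.69), with overlapping groups. Rab11a made up 45.7% to 100% of the Rab11 pair's counts in skin and 20.04% to 38.0% in spleen, while the pair's sums overlapped, at 404 ± 111 and 549.9 ± 201 CPM (SD, n = 4 each). The longest transcripts differ in length, 2336 bases for Rab11a and 6109 for Rab11b, so counts favour Rab11b. Per kilobase, Rab11a and Rab11b averaged 136.5 ± 53.9 and 14.0 ± 13.2 CPM in skin. In spleen they averaged 72.0 ± 41.0 and 62.5 ± 18.6 CPM per kilobase (SD, n = 4 each).

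Rab10, which carries cargo to the plasma membrane, was at 342, 453, 403 and 233 CPM in skin and at 131, 222, 161 and 374 CPM in spleen (log2 change 0.69 ± 0.42, SE; edgeR adjusted p = 0.705). Only spleen replicate 4 reached the skin range. Rab14, of the Golgi and endosomes, was at 206 ± 86.8 and 184 ± 17.04 CPM, and Rab35, of fast recycling, at 41.6 ± 32.0 and 24.8 ± 25.1 CPM (SD, n = 4 each). Rab12 was not tested, with counts in 1 skin and 3 spleen libraries.

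**Figure D4:**
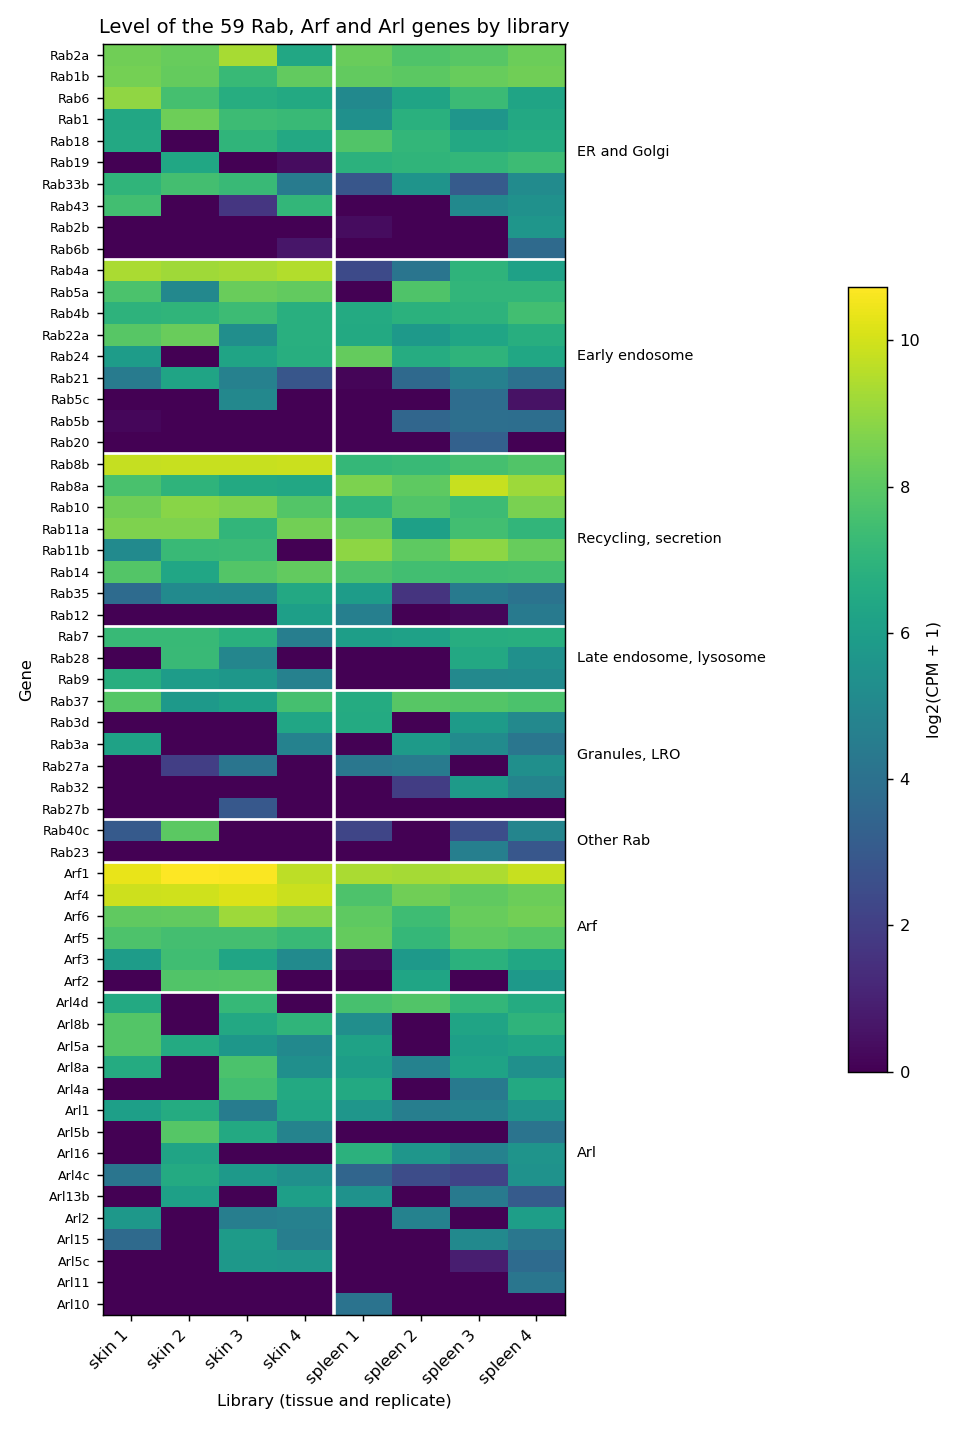
Level of the 59 members, log2(CPM + 1) (colour), by gene (rows, ordered by role and mean level; LRO, lysosome-related organelles) and library (columns, skin 1 to 4 then spleen 1 to 4). Rab8b, Rab4a, Arf4 and Arf1 form the brightest rows in skin, and 24 of the 59 members have a count in all 8 libraries.

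For Rabs of the endoplasmic reticulum and Golgi, 10 were measured and 8 tested; none passed, 5 changes were above 0 and 3 below, and the median was 0.84. Rab1 and Rab1b direct transport from the endoplasmic reticulum to the Golgi. Rab1b averaged 269.5 ± 88.3 and 297 ± 33.4 CPM (SD, n = 4 each; log2 change -0.14 ± 0.35, SE; edgeR adjusted p = 0.998). Rab1 was at 86.1, 332, 164 and 153 CPM in skin and 41.0, 112, 48.2 and 88.1 CPM in spleen (log2 change 1.35 ± 0.75, SE; adjusted p = 0.621), with overlap through skin replicate 1. Rab1 made up 19.4% to 53.0% of the Rab1 pair in skin and 12.7% to 29.8% in spleen.

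Rab2a, which acts between the Golgi and the endoplasmic reticulum, was at 340.1, 301, 643 and 84.6 CPM in skin and 307, 219, 242 and 316 CPM in spleen. The skin libraries lay on both sides of the spleen range (log2 change 0.34 ± 0.53, SE; edgeR adjusted p = 0.998). Without skin replicate 3 the change was -0.21. Its paralog Rab2b was at 0 in all skin libraries and at 0.292, 0, 0 and 48.2 CPM in spleen, and was not tested.

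Rab19, a little-studied Golgi-associated Rab, was at 0, 84.0, 0 and 0.282 CPM in skin and at 117, 128, 137 and 161 CPM in spleen. The spleen libraries agreed closely, and skin replicate 2 alone among the skin libraries was above the floor. The log2 change was -2.68 ± 2.36 (SE; edgeR adjusted p = 0.946); in limma-voom, which gave libraries weights, adjusted p was 0.0257. Rab33b, a Golgi Rab that binds the autophagy factor Atg16l1, was at 128, 182, 153 and 21.2 CPM in skin and 6.33, 46.2, 7.41 and 35.2 CPM in spleen (log2 change 2.35 ± 1.30, SE; adjusted p = 0.623), with skin replicate 4 inside the spleen range. Rab6, of transport within the Golgi, was at 218 ± 187 and 86.2 ± 53.0 CPM, and Rab18, of lipid droplets and the endoplasmic reticulum, at 75.6 ± 53.8 and 137 ± 62.7 CPM (SD, n = 4 each). Rab43 ranged from 0 to 178 CPM in skin and from 0 to 42.4 CPM in spleen, and Rab6b was not tested.

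Late endosome and lysosome Rabs did not pass in any of 3 genes tested. Rab7, which controls the late endosome and its fusion with lysosomes, was at 149, 149.5, 111 and 23.0 CPM in skin and at 64.1, 68.9, 102 and 105 CPM in spleen, so 3 skin libraries were above and 1 was below the spleen range. Rab9, of transport from late endosomes to the Golgi, was at 106, 60.2, 49.7 and 25.6 CPM in skin and at 0, 0, 32.1 and 33.7 CPM in spleen (log2 change 1.87 ± 2.26, SE; edgeR adjusted p = 0.998). Rab28 had counts in 2 libraries of each tissue.

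For Rabs of secretory granules and lysosome-related organelles, 6 were measured and 4 tested; none passed, and all 4 changes were below 0, with a median of -0.85. Rab27a, needed for release of lytic granules, was at 0, 2.97, 16.8 and 0 CPM in skin and at 18.3, 20.8, 0 and 39.99 CPM in spleen (log2 change -1.997 ± 2.45, SE; edgeR adjusted p = 0.998). Rab37 was the most abundant of the group, at 137 ± 89.9 and 195 ± 68.8 CPM (SD, n = 4 each). Rab3d and Rab3a each had counts in 1 or 2 skin libraries and in 3 spleen libraries. Rab32, not tested, was at 0 in all skin libraries and at 0, 2.85, 56.6 and 27.6 CPM in spleen. Rab27b had a count in skin replicate 3 alone (6.70 CPM). Of the 2 Rabs outside these groups, Rab40c reached 262 CPM in skin replicate 2 against 0 to 28.4 CPM in all other libraries, and Rab23 had counts in 2 spleen libraries.

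All 6 Arf genes were tested: 1 was higher (Arf4), none lower and 5 did not pass, with 5 changes above 0 and a median of 0.72. Arf1, which recruits the COPI coat and clathrin adaptors at the Golgi, was at 1327, 1695, 1619 and 811 CPM in skin and at 651, 630.4, 682 and 899 CPM in spleen. The groups overlapped through skin replicate 4 and spleen replicate 4. The means were 1363 ± 401 and 716 ± 124 CPM (SD, n = 4 each), a 1.91-fold difference, with a log2 change of 0.93 ± 0.25 (SE; edgeR adjusted p = 0.0754). It passed with RLE scaling (adjusted p = 0.0472), in DESeq2 (0.00506), in limma-voom (0.0488) and without skin replicate 4 (0.0284).

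Arf6, which acts at the plasma membrane, was at 275, 287, 565 and 414 CPM in skin and 267, 166, 299 and 347 CPM in spleen (log2 change 0.51 ± 0.36, SE; edgeR adjusted p = 0.826). Arf5, the other class II Arf, was at 213, 182, 184 and 152 CPM in skin and 288, 139, 268 and 237 CPM in spleen (log2 change -0.35 ± 0.40, SE; adjusted p = 0.998). Both genes overlapped between tissues. Arf4 made up 81.9% to 86.1% of the class II pair's counts in skin and 42.7% to 70.9% in spleen. Arf3, of the trans-Golgi network, was at 85.9 ± 60.1 and 62.5 ± 48.5 CPM, and Arf2 was at 0 in 2 libraries of each tissue, with 223 and 234 CPM in the other two of skin and 77.7 and 54.4 CPM in those of spleen.

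Arl proteins are Arf-like GTPases with roles at the Golgi, lysosome, cilium and microtubules. Of 15 measured, 12 were tested, none passed, 10 changes were above 0 and the median was 0.85. Only 2 of the 12, Arl1 and Arl4c, had counts in all 8 libraries. Arl1, which recruits golgins to the trans-Golgi network, was at 65.8 ± 31.9 and 36.1 ± 13.4 CPM (SD, n = 4 each), with overlap. Arl4c was at 17.1, 92.5, 55.5 and 40.4 CPM in skin and 10.2, 4.55, 3.42 and 43.4 CPM in spleen (log2 change 1.74 ± 1.51, SE; edgeR adjusted p = 0.938), where spleen replicate 4 stood within the skin range.

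Arl5b, a Golgi-localised Arl, had the largest fitted change of the tested members, 4.41 ± 3.14 (log2, SE; edgeR adjusted p = 0.838), from 0, 239, 90.5 and 26.7 CPM in skin and 0, 0, 0 and 16.6 CPM in spleen. Arl4d and Arl16 were the 2 with changes below 0, at -1.48 and -1.65: Arl4d was at 0 in 2 skin libraries and at 94.99 to 224 CPM in spleen, and Arl16 had a count in 1 skin library and in all 4 of spleen. Arl8a and Arl8b, which couple lysosomes to kinesin, were at 84.2 ± 88.0 and 110.4 ± 94.5 CPM in skin and at 50.5 ± 21.2 and 59.7 ± 52.9 CPM in spleen (SD, n = 4 each). The remaining tested Arls, Arl2, Arl4a, Arl5a, Arl13b and Arl15, overlapped between tissues. Arl10 and Arl11 each had a count in 1 spleen library, and Arl5c in 2 of each tissue; these 3 were not tested.

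Levels of different genes were compared per kilobase of the longest protein-coding transcript in GENCODE M21, found for 58 of the 59 members. In skin the order was Arf1 (685 ± 201 CPM per kb), Arf4 (466 ± 43.4), Rab4a (456 ± 39.0), Arf6 (251 ± 88.5), Rab8b (191.5 ± 3.78) and Arf5 (164 ± 22.5; SD, n = 4 each). Arf1 and Arf4, Arf4 and Rab4a, and Arf6 and Rab8b did not differ beyond their SDs. For Rab8b and Arf5 the SDs came close but did not meet. In spleen Arf1 was again first (359 ± 62.3 CPM per kb), followed by Arf5 (209 ± 58.99), Arf6 (176 ± 50.1), Rab1b (155 ± 17.5) and Arf4 (133 ± 25.9), each within the spread of the next from Arf5 on. Rab8b ranked 5 in skin and 21 in spleen, Rab4a ranked 3 and 20, and Rab8a ranked 24 and 8.

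The summed level of all 59 members was 8990.3 ± 1011 CPM in skin (7489.9 to 9615) and 5937 ± 900.5 CPM in spleen (4822 to 6797; SD, n = 4 each), with no overlap. Without the 6 members whose tissues did not overlap, the sums were 6196 ± 913 and 4366 ± 619 CPM, and their ranges overlapped (4832 to 6716 and 3646 to 5151); with RLE scaling they did not (5015 to 6867 and 3782 to 4567). The 6 Arf genes summed to 3141 ± 677 and 1601 ± 249.4 CPM, a 1.96-fold difference without overlap, and without Arf4 the ranges were 1410.5 to 2682 and 1066 to 1619 CPM. The Arl sums overlapped, at 601 to 962 and 353 to 696 CPM. Members at 0 made up 17.6% ± 4.72 of the 47 tested in skin and 12.8% ± 10.6 in spleen, beside 29.4% ± 3.63 and 11.4% ± 10.2 of all genes tested (SD, n = 4 each).

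The other genes of the Rab and Arf cycle were taken from a list of 159 exchange factors, GTPase-activating proteins, effectors, prenylation factors and dissociation inhibitors, of which 142 had a count and 90 were tested. None was higher in skin, 6 were lower (6.67%, against 3.58% of all genes tested) and 84 did not pass; at an unadjusted p under 0.05 there were 11 of 90, beside 860 of all 6920, and DESeq2 called 1 higher (Gdi2) and 9 lower, beside 295 and 447 over all genes. The changes were above 0 for 48 and below 0 for 42, with a median of 0.22. The 6 were at 0 in all 4 skin libraries and so passed the filter on low counts only through spleen, where they had to be high; their count and p-values are a description, and with detection in 3 libraries of each tissue required they were not tested and 0 were lower. Of 3227 tested genes with a spleen mean between 40 and 150 CPM, 145 (4.49%) were at 0 in all skin libraries, against 9 of 2580 (0.349%) the other way.

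Unc13d, which encodes the Rab27a effector Munc13-4, was at 262, 123, 81.2 and 122 CPM in spleen, at least 379.7-fold higher than the floor of 3 counts per library that skin allows (edgeR adjusted p = 0.0363). Such bounds cover counting error only, and 26.1% to 32.6% of the tested genes were at 0 in a skin library. Tbc1d17, at 140 ± 80.3 CPM in spleen (SD, n = 4), was at least 361-fold above that floor (edgeR adjusted p = 0.0431). Tbc1d7 was at 40.1 ± 12.1 CPM in spleen (SD, n = 4), at least 104-fold above it (edgeR adjusted p = 0.0473). The list placed both with the Rab GTPase-activating proteins, an activity not tested here, and both followed the pattern of Unc13d. So did Dennd2d, a Rab exchange factor (78.7 ± 30.8 CPM in spleen), Arap1, an Arf GTPase-activating protein (86.4 ± 49.4 CPM), and Pde6d, which carries prenylated cargo with Arl2 and Arl3 (44.4 ± 33.9 CPM; SD, n = 4 each), with edgeR adjusted p from 0.0473 to 0.0484. Unc13d still passed without each skin library in turn and Tbc1d17 without skin replicate 4; the other 4 passed in no fit that left out a library, and none of the 6 passed without a spleen library. With no filter on low counts, 1 of the 6 passed (Unc13d).

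Gdi2, which extracts Rab proteins from membranes, was at 979, 1149.6, 473 and 1356 CPM in skin and at 206, 307, 531 and 459 CPM in spleen (log2 change 1.40 ± 0.40, SE; edgeR adjusted p = 0.0893). Skin replicate 3 lay inside the spleen range. Rabac1, which displaces that inhibitor, was at 299.9, 356, 559 and 468 CPM in skin and 302, 156, 220 and 198 CPM in spleen (log2 change 0.94 ± 0.34, SE; adjusted p = 0.213). Tbc1d10c, a GTPase-activating protein abundant in lymphocytes, did not overlap, at 147, 284, 579 and 261 CPM in skin and 743, 957, 920 and 984 CPM in spleen (log2 change -1.50 ± 0.39, SE; adjusted p = 0.061). Tbc1d10a was at 253 ± 174 and 97.6 ± 42.2 CPM (SD, n = 4 each). Ankfy1, an early endosome effector, and Dennd4b, an exchange factor, were at most 4.69 CPM in skin and at least 11.6 CPM in spleen, with adjusted p of 0.186 and 0.375.

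**Figure D5:**
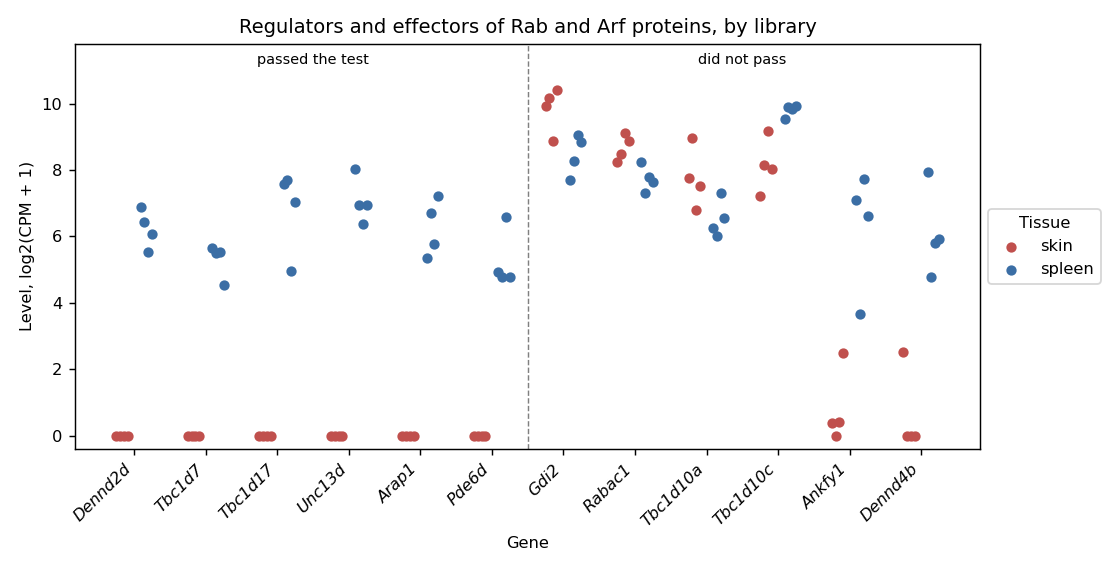
Level, log2(CPM + 1) (y axis), of 12 regulators and effectors of Rab and Arf proteins (x axis) in the 4 skin (red) and 4 spleen (blue) libraries; the 6 genes left of the dashed line passed the test and the 6 right of it did not. The 6 that passed are at 0 in all 4 skin libraries.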

How the data were processed

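RNA of skin and spleen iNKT cells (4 libraries each) was made into cDNA with a SMART-Seq v4 kit and sequenced in paired ends, per the labels' protocols. The deposited values are RSEM expected counts per gene; the submitters' processing notes name mm9, FastQC and DESeq2 1.16.1, with the aligner and annotation not given in the sources used here. Between 43.3% and 59.8% of each library's values above 0 were not whole, and expected counts were rounded.

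Genes were kept by edgeR's filterByExpr (6920 of 11440 with a count), scaled by TMM and tested with edgeR 4.0.16 (glmQLFit, robust, tissue as the only term, 6 residual degrees of freedom) in R 4.3.3, with Benjamini-Hochberg adjustment over all genes tested. DESeq2 1.42.0 and limma-voom 3.58.1, other scalings and filters, rounding down, a replicate block and leaving out each library were alternatives. SE is the log2 change divided by the root of F. A floor of 3 counts per library gives bounds, which cover counting error only. No 2 libraries were identical; the closest pair differed by a chi-square of 112 per degree of freedom. Scripts were run on simulated data. The check there was the sign of large edgeR changes, at a dispersion far below the 2.94 of these data. That check does not show how often changes are found at the spread of these data. Data simulated at the spread of each gene were also run, and those results are not given here.

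Members named by rule were those called, those without overlap between tissues at a mean of at least 20 CPM in the higher, those at 0 in all libraries of a tissue with at least 50 CPM in the other (none), the 10 most abundant, and the paralogs of these; other members are given by role. Cycle genes named were those called and the 3 next in each direction by adjusted p. The members and lists were chosen with earlier results of these data known, and Arf4 and Rab8b were named in that choice. Tbc1d15 was singled out after its values were seen. Rab and Arf genes share sequence, so counts divided between paralogs are uncertain. Some marker genes of the lists are not reported here.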

Additional observations from a re-analysis of the deposited data

Results flagged for a closer look

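In 53 groups of 4 libraries, 6 held a value set apart from the other 3 by Dixon's test at 95%. The test's rate of about 1 in 20 holds for normally distributed values. Groups with values at 0 are not so distributed, so that rate is no reference for these 6. Rab19 in skin replicate 2 was at 84.0 CPM, against 0 to 0.282 CPM in the other skin libraries. Rab2b in spleen replicate 4 was at 48.2 CPM, against 0 to 0.292 CPM in the other spleen libraries.

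The rest were genes of the Rab and Arf cycle. Pde6d in spleen replicate 3 was at 95.2 CPM, against 26.5 to 29.2 CPM in the other spleen libraries. Ankfy1 in skin replicate 4 was at 4.66 CPM, against 0 to 0.341 CPM. Dennd4b was set apart in spleen replicate 1, at 243 CPM against 26.4 to 59.2 CPM, and in skin replicate 1, at 4.69 CPM against 0 in the other 3.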

How the results depend on the processing

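Arf4 (log2 change 1.69 to 1.89) and Rab8b (2.19 to 2.49) passed in all 17 alternatives. The 2 members higher became 4 with RLE scaling, in DESeq2 and in limma-voom, where Rab4a and Arf1 joined them, and ranged from 2 to 3 when 1 library was left out. The 1 member lower became 0 with no filter and with the replicate block, and 0 without any 1 library; in limma-voom the 1 was Rab19, not Rab8a. Cycle genes higher went from 0 to 1 in DESeq2 and stayed at 0 without any 1 library; cycle genes lower went from 6 to 1 with no filter, 0 with detection in 3 libraries of each tissue (where those 6 are not tested), 0 with the replicate block and 0 to 2 without 1 library. Over all genes, 128 higher became 295 in DESeq2, 209 in limma-voom, 36 with the block and 47 to 102 without 1 library; 248 lower became 48 with no filter, 42 with detection in 3 libraries of each tissue, 447, 519, 14 and 17 to 111. The cause was not tested.

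Among the tested members and cycle genes named by rule, changes of sign occurred in 4 genes that did not pass. Other tested genes were not followed for sign. Without 1 library, Rab2a ranged from -0.21 (without skin replicate 3) to 0.62, Rab1b from -0.33 to 0.021 (without skin replicate 3), Rab4b from -0.14 (without skin replicate 3; -0.10 and -0.03 without spleen replicates 1 and 2) to 0.23, and Arf3 from -0.16 (without skin replicate 2) to 0.93; Rab4b was -0.12 in limma-voom. RLE and upper-quartile scaling moved the median change of all genes by 0.06 and 0.05. Members without overlap were 3 in each direction, and 4 higher with RLE. The labels number both tissues 1 to 4, but same-numbered libraries did not deviate together (correlations 0.0017 to 0.011), and 1 of 4 numbers matched its own best, so the replicate block is given only here (Rab8a adjusted p = 0.287).

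The common dispersion was 2.94. The floor of 3 counts (0.292 to 0.454 CPM) was a chosen setting. Levels under it, such as 0.151 CPM for Rab5b in skin replicate 1, rest on very few counts.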

Other observations

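Tbc1d15, a Rab7 GTPase-activating protein singled out after its values were seen, was at 580.4, 736, 568 and 684 CPM in skin and at 0, 0, 114 and 32.0 CPM in spleen. All skin libraries were above all spleen libraries, and the log2 change of 4.13 ± 1.94 (SE) did not pass (edgeR adjusted p = 0.458).

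Of the 90 cycle genes tested, 5 were higher in skin without overlap (5.56%, against 6.11% of all genes tested) and 10 lower (11.1%, against 13.4%). Beside Tbc1d15 the higher ones were Sytl3, a Rab27 effector, with skin libraries from 73.8 to 195 CPM and spleen libraries from 0 to 51.7 CPM, Rabgef1, a Rab5 exchange factor (91.9 to 207 and 26.8 to 75.2 CPM), Smap2, an Arf GTPase-activating protein (63.2 to 177 and 37.9 to 59.7 CPM), and Rabggtb, a subunit of the Rab prenyltransferase (41.7 to 84.8 and 0 to 38.9 CPM). Among the lower ones was Dennd1c, an exchange factor, from 0 to 80.6 CPM in skin and from 131 to 339.8 CPM in spleen. None of the genes named here passed. Of the COPI coat subunits that Arf1 recruits, none of those tested passed, and Copg2 and Copz2 were not tested. The change was below 0 for Copa, Copb2, Cope, Copg and Copz1 and above 0 for Copb1 and Arcn1. Copa averaged 300.2 ± 181 CPM in skin and 391 ± 111 CPM in spleen (SD, n = 4 each, edgeR adjusted p = 0.998). Copg averaged 76.4 ± 55.7 and 228 ± 118 CPM (SD, n = 4 each, edgeR adjusted p = 0.542). Copb1 averaged 342 ± 189 and 258 ± 235 CPM (SD, n = 4 each, edgeR adjusted p = 0.998). All genes of this paragraph were picked after their values were seen.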
